A study of Rattus norvegicus with 16 samples.

Results

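Serine dehydratase (Sds) and 7 enzymes or transporters of glucose synthesis and glucose breakdown were followed in 16 RNA libraries from rat liver and bone marrow. The 8 genes are Sds, Pck1, Fbp1, Pklr, Pkm, Hk2, Slc2a2 and Ldha, and they were found by symbol among the 32623 gene records of the deposited table, each matching 1 record. They were chosen with the liver response to N-nitrosodiethylamine already in view, so their liver differences are given below as a description, with no p. Their levels in marrow and in untreated tissue, and the responses of the wider pathway lists, were tested.

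The animals were female Big Blue rats, a strain transgenic for a vector with cII and lacI reporter genes for mutation assays, received at 6 weeks of age and acclimated for 1 week. N-nitrosodiethylamine (NDEA), a carcinogenic nitrosamine that liver cytochrome P450 turns into a DNA-alkylating agent, was given by gavage for 28 days at 10 mg/kg/day, and control rats had a dose of 0 mg/kg/day. Liver and bone marrow were collected 3 days after dosing ended, and each tissue has 4 control and 4 NDEA libraries, which makes 4 groups. All rats of all groups carry the transgene. The labels describe separately treated rats but do not tie a library to a cage or say which liver and marrow libraries share a rat. The labels used here give neither feeding state nor hour of tissue collection.

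Liver makes glucose from lactate, glycerol and amino acids and burns it by glycolysis, and the opposite directions run through different enzymes at the irreversible steps. Sds removes the amino group of serine to give pyruvate, Pck1 (phosphoenolpyruvate carboxykinase) and Fbp1 (fructose bisphosphatase) are steps toward glucose, and Slc2a2 (GLUT2) carries glucose across the hepatocyte membrane. Pklr is the pyruvate kinase of liver and red cells, Pkm that of most other tissues, Hk2 an insulin-responsive hexokinase of muscle and dividing cells, and Ldha the lactate dehydrogenase subunit that favours lactate. In hepatocytes, fasting hormones acting through cAMP raise transcription of Pck1, and glucose acting through a carbohydrate response element raises that of Pklr.

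The 250 bases before the annotated start (RefSeq, build GRCr8) are shown for Pck1, Pklr and Ldha, whose promoters hold a full copy of a motif searched for because of these hormone and glucose signals. Of the 8 members, 7 matched the promoter table. Motifs searched on both strands were the cAMP response element TGACGTCA, its variant TTACGTCA, the E-box CACGTG and the half-site CACGGG. A pair of that half-site and its reverse complement CCCGTG, separated by 5 bases, was searched as an exact-letter form of the carbohydrate response element. The pair contains the half-site, so these motifs overlap. Capitals mark the TTACGTCA match in Pck1, the paired half-sites with their spacer in Pklr, and the CACGTG and TGACGTCA matches in Ldha.

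Pck1 (chr3:182348322-182348571, plus strand): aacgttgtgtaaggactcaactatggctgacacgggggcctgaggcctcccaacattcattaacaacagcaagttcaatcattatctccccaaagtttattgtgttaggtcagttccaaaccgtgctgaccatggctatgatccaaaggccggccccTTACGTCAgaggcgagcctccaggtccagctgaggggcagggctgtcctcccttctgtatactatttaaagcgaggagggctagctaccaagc
Pklr (chr2:176841014-176841263, plus strand): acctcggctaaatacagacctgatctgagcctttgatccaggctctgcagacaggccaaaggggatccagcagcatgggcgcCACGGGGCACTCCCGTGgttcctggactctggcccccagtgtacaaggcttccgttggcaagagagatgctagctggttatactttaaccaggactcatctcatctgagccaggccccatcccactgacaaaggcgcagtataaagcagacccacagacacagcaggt
Ldha (chr1:106507842-106508091, plus strand): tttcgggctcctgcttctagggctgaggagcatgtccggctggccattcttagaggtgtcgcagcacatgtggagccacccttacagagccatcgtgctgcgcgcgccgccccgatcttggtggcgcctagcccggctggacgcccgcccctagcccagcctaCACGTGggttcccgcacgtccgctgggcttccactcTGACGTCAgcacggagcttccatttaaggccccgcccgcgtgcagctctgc

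The variant TTACGTCA in Pck1 began 93 bases before the start, and 251 of 33469 promoters of the same length (0.75%) hold it. This variant was searched as the Pck1 type of the element, so its match there was set by that choice. The paired half-sites in Pklr began 168 bases before the start, and 1 of 33469 promoters (0.00299%), that of Pklr itself, holds the pair. Only these exact letters were searched, so looser forms of the element were not counted and its rarity is not shown. In Ldha the E-box began 87 bases and the TGACGTCA match 51 bases before the start. The E-box occurs in 5.59% and TGACGTCA in 1.59% of these promoters, and the single half-site CACGGG in 8.05%, among them the promoters of Pck1 and Hk2. These matches describe letters, not bound factors, and no binding was measured in this series.

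Values are CPM (a gene's share of the counts of its library), scaled within each tissue unless CPM of all counts is stated. The libraries were made with a kit that reads the 3' end of polyadenylated RNA, so a count does not grow with transcript length. Liver libraries held 5000844 to 6863592 counts and marrow libraries 2162182 to 5705705. Hepatocyte markers summed to 124100 to 162390 CPM in liver and to 823 to 1781 CPM in marrow, while neutrophil and myeloid markers summed to 2.53 to 16.5 CPM in liver and to 22001 to 37331 CPM in marrow, so both tissues carried the markers of their labels. A gene was called at a Benjamini-Hochberg adjusted p under 0.05 over all genes tested in limma-voom. NDEA against control gave 639 called of 9668 genes tested in liver (6.61%), 277 higher and 362 lower. In marrow 0 of 9239 genes (0.0%) were called, with 1336 at an unadjusted p under 0.05, and limma-trend also called 0. In whole tissue, fewer cells of a type and less RNA per cell cannot be told apart.

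**Figure D1:**
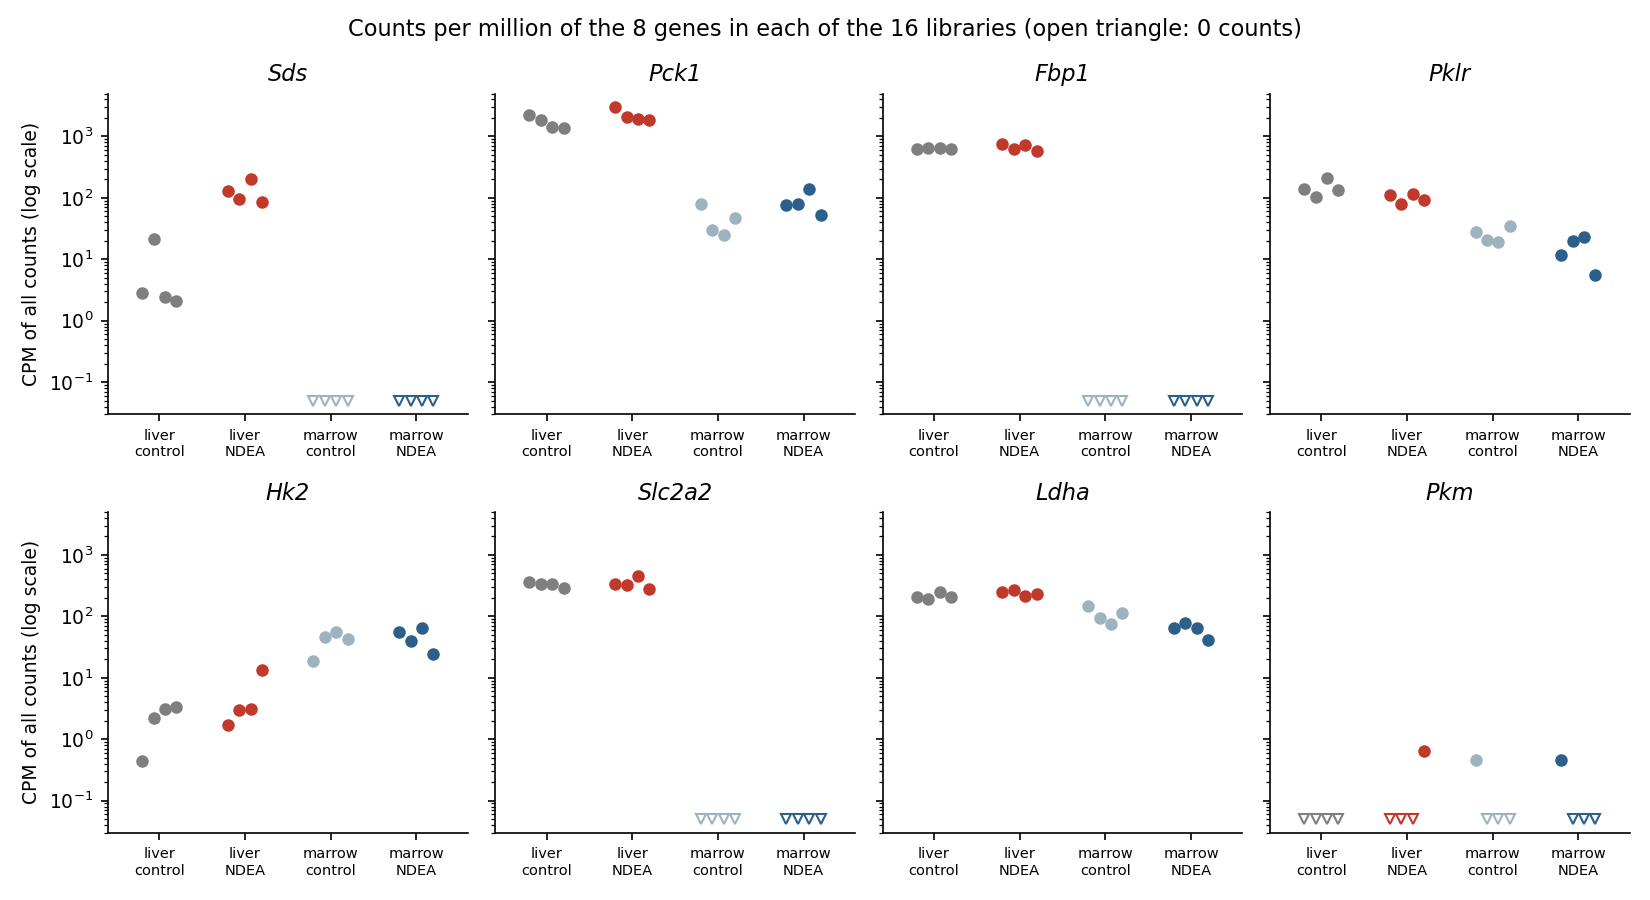
CPM of all counts (log axis) of the 8 genes, 1 point per library in the 4 groups of 4, with open triangles for libraries at 0 counts. Sds stands apart between the liver groups, Sds, Fbp1 and Slc2a2 have 0 counts in every marrow library, and Pkm is at or near 0 everywhere.

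Sds was the member with the largest liver difference. In control liver it stood at 2.97, 22.1, 2.52 and 2.21 CPM in libraries 1 to 4, from 19, 126, 14 and 12 counts. In NDEA liver it stood at 128, 89.6, 195.5 and 79.3 CPM, from 836, 472, 1390 and 529 counts. Every NDEA library lay above every control library, and control 2 was the only control above 3 CPM. The means were 7.44 ± 9.75 and 123 ± 52.6 CPM (SD, n = 4), a fitted log2 difference of 4.70 (SE 0.72) or 26.1-fold. Without control 2 the log2 difference was 5.46. By size of the upward log2 difference Sds ranked 4 among the 7834 genes whose average log2 CPM reached 2, and 39 among all 9668 tested.

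The neighbour and relative of Sds, Sdsl (serine dehydratase-like), was far less different. The deposited table places Sds at 41620393 and Sdsl at 41636994 on chromosome 12 of an unnamed build, 16601 bases apart, with 0 other records between them. Control livers held Sdsl at 6.94 ± 1.57 CPM and NDEA livers at 14.5 ± 3.79 CPM (SD, n = 4). The groups did not overlap, but the log2 difference of 1.01 (SE 0.42) did not pass the limma-voom test (adjusted p = 0.18). Of the summed Sds and Sdsl counts in liver, Sds took 39.7% ± 21.3 in control and 88.8% ± 3.76 in NDEA libraries (SD, n = 4). Control 2 again stood apart, with 71.6% of 176 counts (95% Clopper-Pearson interval 64.3 to 78.1) against 27.5% to 30.8% in the other 3 controls. Intervals and limits from counts here cover counting error only.

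The 5 genes nearest to Sds over the 8 liver libraries were Cdkn1a, Rhbg, Pttg1, Egr1 and Kif20b, measured by the root-mean-square difference between log2 CPM profiles centred on their means, among 7834 genes. That difference was 0.78 for Cdkn1a, a cell-cycle inhibitor and p53 target, 1.03 for Rhbg, an ammonium transporter of pericentral hepatocytes, and 1.03 for Pttg1, a regulator of chromosome separation. It was 1.09 for Egr1, an immediate-early transcription factor, and 1.13 for Kif20b, a mitotic kinesin. The control and NDEA means were 23.5 ± 16.7 and 327 ± 47.9 CPM for Cdkn1a, and 16.2 ± 13.8 and 153 ± 101 CPM for Egr1 (SD, n = 4). Control 2 held the most counts of all 4 controls for each of these 5 genes, with 273 against 54 to 108 for Cdkn1a and 208 against 39 to 87 for Egr1. These genes were picked by likeness over the libraries that chose Sds, so their differences are a description.

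**Figure D2:**
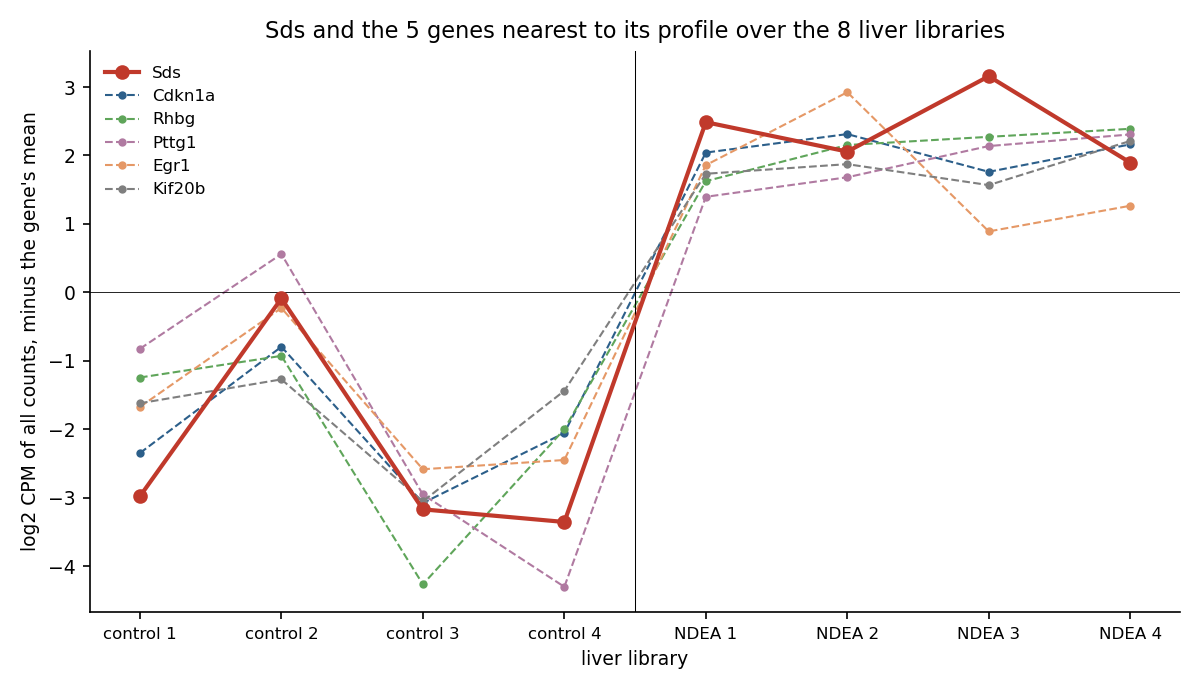
Log2 CPM of all counts minus each gene's own mean in the 8 liver libraries, for Sds (solid) and its 5 nearest genes (dashed), with controls left of the vertical line. All 6 profiles are higher in the 4 NDEA libraries than in the 4 controls, and control 2 is the highest control for each.

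Some cell marker lists differed between the liver groups and others overlapped. Hepatocyte markers summed to 131350 to 162390 CPM in control and 124100 to 147860 CPM in NDEA liver. Sinusoidal endothelial markers summed to 355 to 382 and 316 to 391 CPM, and erythroid markers to 2091 to 4264 and 1477 to 5211 CPM. Ranges overlapped for each of these. The summed level of 19 cell-cycle genes was 29.7 to 105 CPM in control and 331 to 496 CPM in NDEA liver, and 9 of 18 tested were called higher and 0 lower. Periportal hepatocyte markers, the zone where serine is chiefly used for glucose, summed to 5791 to 7110 CPM in control and 5935 to 6607 CPM in NDEA liver, so the ranges overlapped, with 2 of 12 called higher and 3 lower. Pericentral hepatocyte markers summed to 6107 to 7415 CPM in control and 4613 to 4874 CPM in NDEA liver, with 1 of 10 called higher and 3 lower, and Lgr5 was at 0 in all of them. Stellate cell markers summed to 256 to 381 and 483 to 591 CPM, with 3 of 10 called higher. Cholangiocyte and progenitor markers summed to 30.2 to 40.0 CPM in control and 54.3 to 93.0 CPM in NDEA liver, without overlap, with 0 of 5 called and Krt19 at 0. Mitochondrial genes took 16.21% to 20.58% of all counts in control livers and 20.09% to 22.36% in NDEA livers. The part of these shifts in the Sds difference was not tested.

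The members that act toward glucose did not follow Sds. Pck1 stood at 2357, 1912, 1483 and 1446 CPM in control liver and at 3073, 2002, 1858 and 1719 CPM in NDEA liver. The groups overlapped, with NDEA 2 to 4 inside the range of the controls, and the log2 difference was 0.25 (SE 0.15). Fbp1 was close to constant in control liver, at 670, 672, 674 and 659 CPM (SD 6.64), and stood at 745, 601, 693 and 546 CPM in NDEA liver (SD 89.6). Its NDEA libraries lay on both sides of the controls, with a log2 difference of -0.06 (SE 0.10). Slc2a2 stood at 383, 351, 355 and 302 CPM in control and at 333, 305, 444 and 267 CPM in NDEA liver. The groups again overlapped, with a log2 difference of -0.06 (SE 0.14).

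Pklr, at the last step of glycolysis, lay lower in NDEA liver. Control libraries stood at 148, 106, 214 and 139 CPM and NDEA libraries at 112, 76.1, 110 and 86.6 CPM. Control 2 lay within the NDEA range, so the groups overlapped. The means were 152 ± 45.3 and 96.3 ± 17.7 CPM (SD, n = 4), a log2 difference of -0.62 (SE 0.18). This value was past the call threshold in the fit used here but not in 9 of 15 alternatives. As the members were chosen with this contrast in view, the call is a description and no test of Pklr. The call was lost without control 1 (-0.61), control 3 (-0.45), control 4 (-0.65), NDEA 2 (-0.53) and NDEA 4 (-0.57), each a log2 difference.

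Ldha and Hk2, genes of lactate formation and glucose phosphorylation, overlapped between the liver groups. Ldha stood at 218, 198, 254 and 216 CPM in control and at 252, 254, 204 and 221 CPM in NDEA liver, a log2 difference of 0.07 (SE 0.12). Hk2 stood at 0.468, 2.28, 3.25 and 3.50 CPM in control and at 1.68, 2.85, 2.95 and 12.6 CPM in NDEA liver. NDEA 4 was the only liver library above 4 CPM, from 84 counts against 3 to 21 in the other 7, and the log2 difference was 1.02 (SE 0.96). It was 0.40 without NDEA 4 and 0.33 without control 1. Of the 8 members, 7 passed the filter on low values in liver and 2 of these 7, Sds and Pklr, were called, beside 6.61% of all genes. Only Sds had groups that did not overlap, beside 12.5% of all genes. The median log2 difference of the 7 was 0.07, beside 0.01 over all genes tested, and since the members were selected on this contrast nothing is read from these counts.

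Pkm was barely counted in either tissue. It had 0 counts in every control liver library, 4 in NDEA liver 4, 1 in marrow control 1, 2 in marrow NDEA 1 and 0 in the rest, 7 in all. A total of 0 over the 4 control livers allows up to 0.125 CPM of all counts for that group (3 counts of the group's total). It did not pass the filter in any comparison. Of 2 further records described as M2 pyruvate kinase-like, 1 held 5 counts in all and the other 0. The sources used here do not say how reads that match several records were counted, so these counts do not show that Pkm RNA was scarce. Hk1, the common hexokinase, was at 0 in 6 of 8 liver libraries and at 0 to 22 counts in marrow. In NDEA liver 3 it held 33 counts and in NDEA liver 4 it held 3.

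Marrow was tested in a fit of its own, not on the liver contrast in view when the members were chosen. Other earlier results of these data were known at that choice. Sds, Fbp1 and Slc2a2 had 0 counts in all 8 marrow libraries, and 4 members passed the filter. Pck1 stood at 70.8, 29.6, 27.1 and 45.9 CPM in control and at 78.8, 77.0, 145 and 57.1 CPM in NDEA marrow. Control 1, the shallowest library, lay inside the NDEA range, and the log2 difference of 1.13 (SE 0.33) did not pass the limma-voom test (adjusted p = 0.247). Ldha stood at 132, 93.1, 83.2 and 111 CPM in control and at 66.7, 73.6, 67.1 and 44.3 CPM in NDEA marrow. Every NDEA library lay below every control, but the log2 difference of -0.72 (SE 0.25) did not pass either (limma-voom adjusted p = 0.252).

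Pklr stood at 25.1, 19.9, 21.3 and 34.0 CPM in control marrow and at 12.1, 19.1, 23.3 and 5.93 CPM in NDEA marrow. NDEA 3 lay among the controls, and the log2 difference was -0.86 (SE 0.42, limma-voom adjusted p = 0.348). Hk2 stood at 17.2, 45.5, 62.1 and 42.9 CPM in control and at 56.8, 37.6, 66.9 and 26.3 CPM in NDEA marrow, with groups that overlapped (log2 difference 0.09, SE 0.36, limma-voom adjusted p = 0.922). Of the 4 tested members 0 were called, beside 0.0% of all genes, and 2 (Pck1 and Ldha) had an unadjusted limma-voom p under 0.05. The number of all marrow genes at that level is given above, and nothing is read from this count. Ldha was the 1 member whose groups did not overlap, beside 5.6% of all genes. The median of the 4 log2 differences was -0.32, beside -0.10 over all genes tested.

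In marrow the share of cytosolic Pck1 against its mitochondrial counterpart Pck2 is described by library and was not tested between treatments. Pck1 made up 55.8%, 42.2%, 48.9% and 62.8% of the summed counts in control libraries and 72.8%, 78.5%, 92.4% and 94.8% in NDEA libraries, from 229 to 754 counts a library. The 95% Clopper-Pearson intervals of the nearest libraries did not meet, 58.0 to 67.5 for control 4 and 68.5 to 76.8 for NDEA 1. These intervals cover counting error, not the spread between libraries. The means were 52.4% ± 8.88 and 84.6% ± 10.7 (SD, n = 4). Pck2 alone stood at 38.0 ± 13.5 and 16.4 ± 11.4 CPM, a log2 difference of -1.50 (SE 0.50) that did not pass the limma-voom test (adjusted p = 0.252). NDEA 3 and 4, the libraries with the highest Pck1 shares, also had the highest mitochondrial shares of counts in marrow (15.16% and 15.78%, against 6.41% to 13.01% in the other 6) and the fewest genes detected (10144 and 9101, against 10920 to 11699). The Pck1 shares of NDEA 1 and 2 lay above every control as well. In liver Pck1 took 99.5% to 99.9% of these counts in every library.

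Adipocytes, which express Pck1, were looked for in marrow with a list chosen after the Pck1 values were seen. The 10 adipocyte markers summed to 1388 to 2266 CPM in control and 1581 to 2258 CPM in NDEA marrow, overlapping ranges, with Plin4 at 0 and 0 of 9 called. The muscle and macrophage lists were not added for Pck1. Skeletal muscle markers, 10 matched, summed to 161 to 561 CPM in control and 63.0 to 78.1 CPM in NDEA marrow, without overlap and with 0 of 8 called. Macrophage markers summed to 2253 to 4795 and 1876 to 3729 CPM, with Marco and Vsig4 at 0 in both groups. The part of these cells in the marrow values of Ldha, Hk2 and Pck1 was not tested.

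Between untreated liver and untreated marrow 66.1% of 10071 genes were called. Pck1, Pklr and Ldha reached the level of the low-count filter in all 4 libraries of each tissue. Sds, Fbp1 and Slc2a2 passed it through liver alone and Hk2 needed the marrow libraries, so a call of these 4 genes was set in part by the filter and none is counted. With a fold computed on CPM of all counts against 3 counts over the 4 marrow libraries, Sds was at least 42.1-fold, Fbp1 at least 3802-fold and Slc2a2 at least 1985-fold higher in control liver. The Sds limit rests on control 2, which holds 126 of the 171 counts, and without that library it was 14.7-fold. In the NDEA groups the same limits were 889.4-fold, 4577-fold and 2404-fold. Pck1 was higher in liver by a log2 difference of 5.78 (SE 0.27, limma-voom adjusted p = 1.286e-10). Pklr was higher by 2.83 (SE 0.29, adjusted p = 5.409e-07) and Ldha by 1.37 (SE 0.19, adjusted p = 1.124e-05) in limma-voom. Hk2 ran the other way, with 0.468 to 3.50 CPM in control liver and 17.2 to 62.1 CPM in control marrow, each scaled within its tissue. Slc2a1, a widely expressed glucose transporter, made up 100% of the 133 Slc2a1, Slc2a2 and Slc2a3 counts in control marrow. In control liver its share was 0.488% ± 0.556 (SD, n = 4). Slc2a4, outside this set, held more counts than Slc2a1 in control marrow (381 against 133), and Slc2a3 held 0. The calls of Pck1, Pklr and Ldha held in all 15 alternatives run for each.

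The wider pathway was read from 9 fixed lists of 137 genes, the 8 members left out, of which 132 matched a record. In liver 106 were tested and 13 were called (12.3%, beside 6.61% of all genes), 3 higher and 10 lower. Their median log2 difference was -0.09, beside 0.01 for all genes tested. When libraries were scaled by totals alone, 5 were higher and 8 lower, and this scaling moved the median of all genes to 0.12. The lists, like the members, were drawn up with earlier results of these data known.

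**Figure D3:**
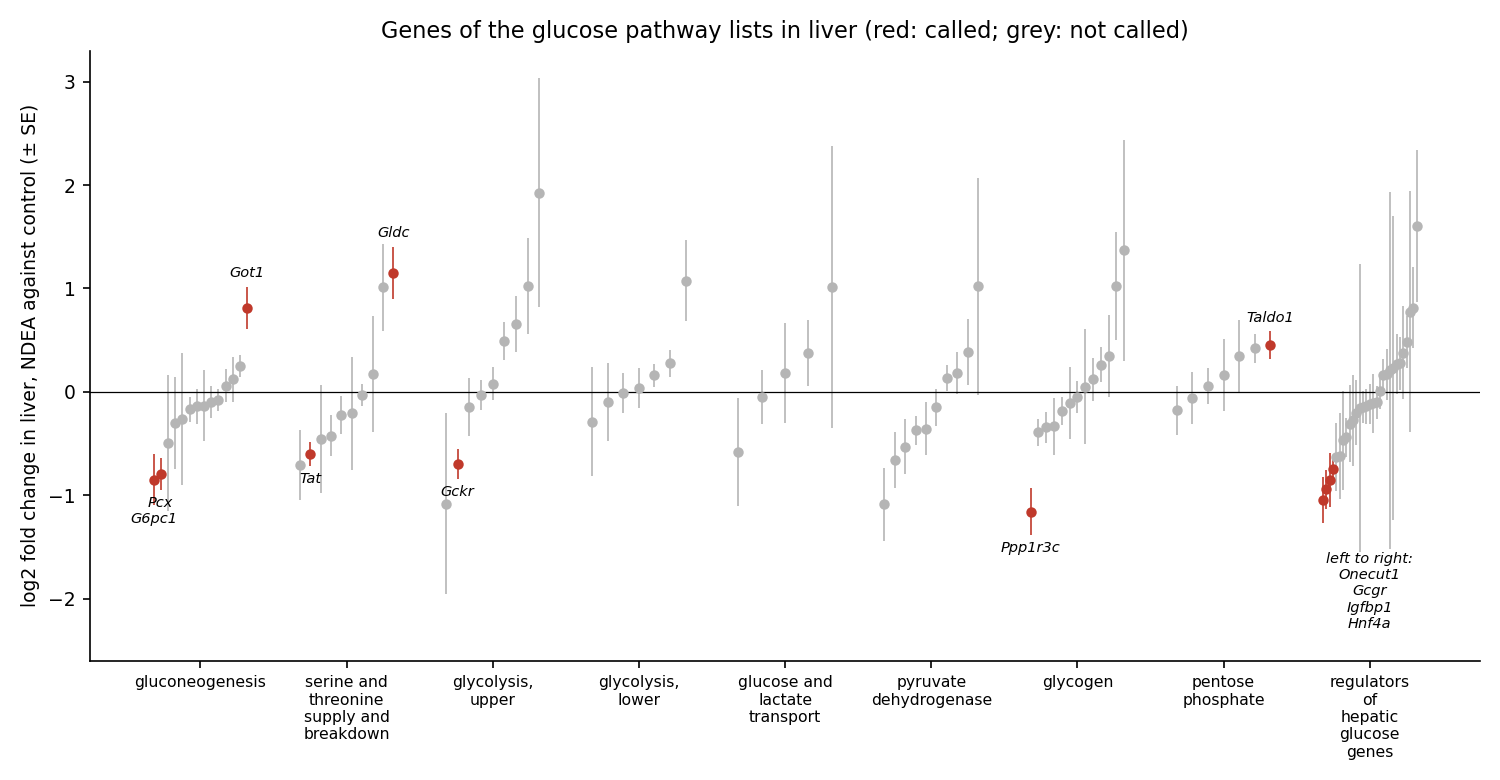
Log2 difference between NDEA and control liver with its standard error for tested genes of the 9 pathway lists that are reported here, the 8 members left out, called genes in red and named. Got1, Gldc and Taldo1 lie above 0, and the lowest red point is Ppp1r3c (-1.16).

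Among 15 tested genes of gluconeogenesis, 1 rose and 2 fell. Pcx, listed in the table as Pc, encodes pyruvate carboxylase, the enzyme that starts glucose synthesis from pyruvate. Its means were 158 ± 21.7 CPM in control and 90.8 ± 14.4 CPM in NDEA liver (SD, n = 4), a log2 difference of -0.80 (SE 0.15, limma-voom adjusted p = 0.00153), without overlap. G6pc1, the glucose-6-phosphatase that releases glucose, fell by 0.85 on the log2 scale (SE 0.25, limma-voom adjusted p = 0.0405), with overlap. Its adjusted p was 0.0539 without control 1, 0.152 without control 3, 0.0899 without control 4, 0.157 without NDEA 3 and 0.0992 without NDEA 4. Got1, the cytosolic aspartate aminotransferase, rose by a log2 difference of 0.81 (SE 0.21, limma-voom adjusted p = 0.016). Its adjusted p was 0.0859 without control 3, 0.0527 without control 4 and 0.0621 without NDEA 1.

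In the list of serine and threonine supply and breakdown, 1 of 10 tested genes rose and 1 fell. Gldc, a part of the glycine cleavage system, which links glycine and serine breakdown, rose from 28.5 ± 11.6 to 59.7 ± 7.90 CPM (SD, n = 4; limma-voom adjusted p = 0.00468), without overlap. Tat, the tyrosine aminotransferase, a glucocorticoid-responsive liver gene, fell from 801 ± 99.8 to 532 ± 78.8 CPM (SD, n = 4; limma-voom adjusted p = 0.00155), also without overlap. Sds and Tat, both enzymes of amino acid breakdown, thus lay on opposite sides of the controls in NDEA liver.

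Upper glycolysis had 0 of 10 tested genes higher and 2 lower. Gckr, a protein that regulates glucose phosphorylation in hepatocytes, fell from 425 ± 79.7 to 260 ± 38.0 CPM (SD, n = 4; limma-voom adjusted p = 0.00264). Hk3, a hexokinase of leukocytes, stood at 8.17 ± 3.47 and 17.0 ± 8.91 CPM (SD, n = 4) and did not pass (limma-voom adjusted p = 0.229). Pfkl, Pfkfb3 and Aldoa did not pass either, with log2 differences of -0.15 (SE 0.28), 1.93 (SE 1.11) and 0.49 (SE 0.18).

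Leukocyte markers were read beside Hk3 in liver. Macrophage markers summed to 888 to 994 CPM in control and 922 to 1102 CPM in NDEA liver, overlapping ranges. Lymphocyte markers summed to 20.5 to 44.8 and 50.7 to 66.1 CPM, without overlap and with 1 of 4 called higher. Their part in the Hk3 values was not tested. In marrow Hk2 took 46.6% ± 6.37 and Hk3 52.1% ± 7.63 of the hexokinase counts in control libraries (SD, n = 4), with 50.8% ± 18.4 and 48.7% ± 18.1 in NDEA libraries, with ranges that overlapped for both genes.

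**Figure D4:**
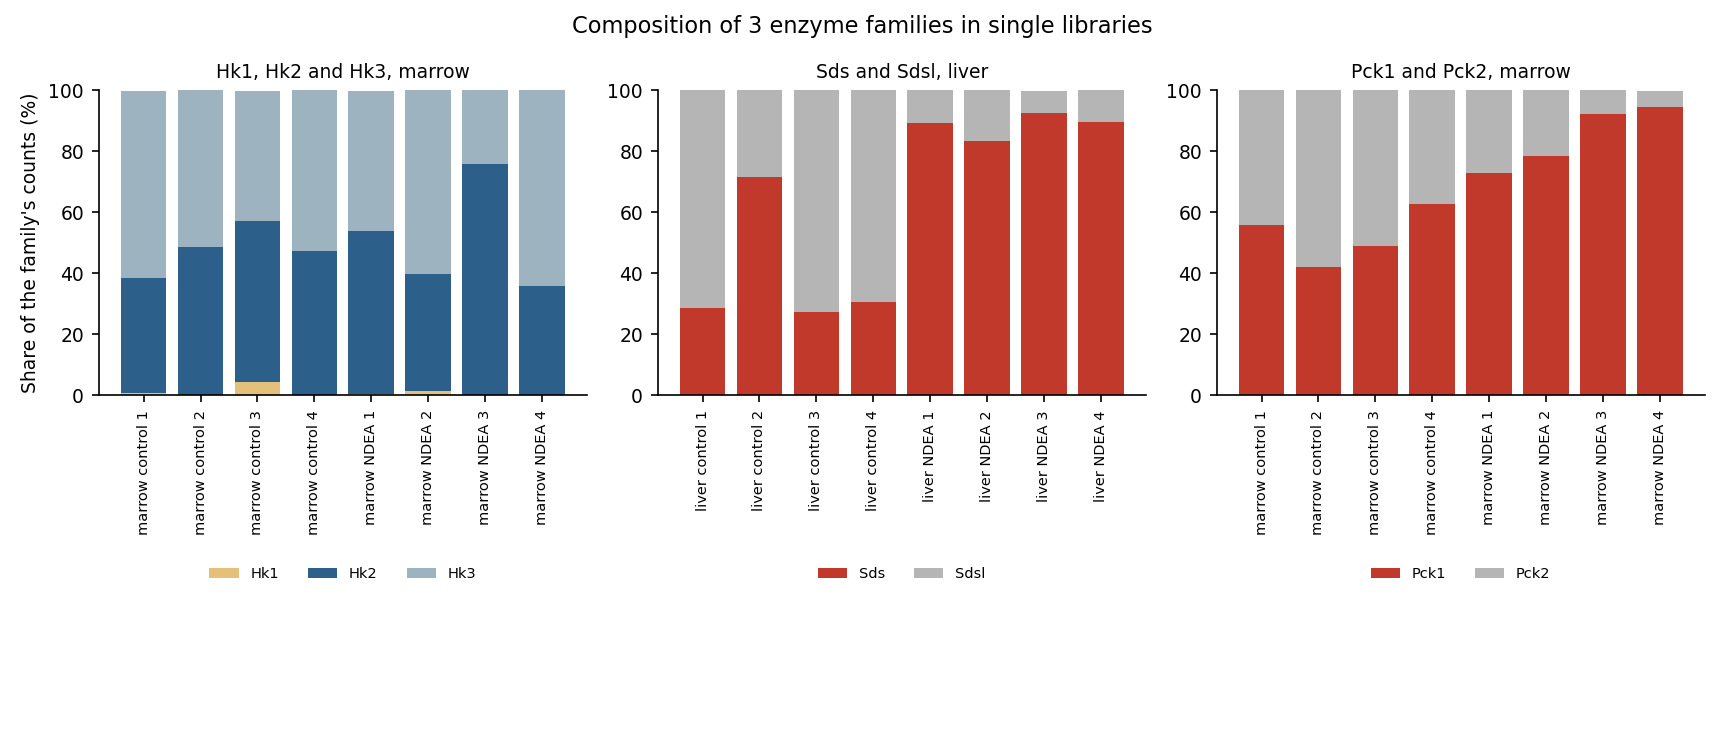
Share of each gene in the summed counts of its enzyme family (percent, 1 bar per library) for Hk1, Hk2 and Hk3 in marrow, for Sds and Sdsl in liver and for Pck1 and Pck2 in marrow. Sds takes 27.5% to 71.6% in control and 83.5% to 92.5% in NDEA liver, and in marrow Pck1 takes 42.2% to 62.8% of control and 72.8% to 94.8% of NDEA counts.

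Lower glycolysis (7 tested), glucose and lactate transport (5 tested) and the pyruvate dehydrogenase list (10 tested) each had 0 genes called in liver. Gapdh, the central dehydrogenase of glycolysis, had a log2 difference of 0.04 (SE 0.19), Ldhb of -0.29 (SE 0.53) and Slc2a1 of 1.02 (SE 1.37). Gapdh held 1426 counts in control and 1669 in NDEA liver, and Tpi1 held 2 and 0. The limit given for Pkm, on reads that match several records, holds for Gapdh and Tpi1 as well. Glycogen metabolism had 1 of 13 genes called, Ppp1r3c, a subunit that brings protein phosphatase to glycogen, at 81.0 ± 14.3 and 37.2 ± 14.1 CPM (SD, n = 4; limma-voom adjusted p = 0.00151). The pentose phosphate list had 1 of 7 called, the transaldolase Taldo1, with a log2 difference of 0.45 (SE 0.14, limma-voom adjusted p = 0.0439). Its adjusted p rose above the threshold without any 1 of 7 libraries, from 0.067 without control 4 to 0.134 without control 3, and stayed under it only without NDEA 3.

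Among regulators of hepatic glucose genes, 4 of 29 tested genes fell and 0 rose. Onecut1, a liver transcription factor, fell by 1.04 on the log2 scale (SE 0.22, limma-voom adjusted p = 0.00378). Gcgr, the glucagon receptor, fell from 77.0 ± 12.9 to 39.7 ± 4.65 CPM (SD, n = 4; limma-voom adjusted p = 0.00228). Hnf4a, a master regulator of hepatocyte genes, fell from 349 ± 55.4 to 207 ± 19.9 CPM (SD, n = 4; limma-voom adjusted p = 4.29e-04) and is named here after its value was seen. Igfbp1, a secreted protein repressed by insulin, fell by 0.85 on the log2 scale (SE 0.26, limma-voom adjusted p = 0.0483). Its adjusted p was 0.172 without control 1, 0.0995 without control 3, 0.0578 without NDEA 2, 0.19 without NDEA 3 and 0.118 without NDEA 4. The Igfbp1 call was also lost with limma-trend, with the other scalings and with the other filters. Foxo1 and Ppargc1a, transcriptional activators of fasting genes, had log2 differences of 0.27 (SE 0.29) and 0.21 (SE 1.72) and were not called. Of the 13 called genes, 9 were called in all 15 alternatives. The exceptions were G6pc1 (called in 8 of 15), Got1 (12), Igfbp1 (5) and Taldo1 (7).

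In marrow 0 of 93 tested pathway genes were called, 15 had an unadjusted limma-voom p under 0.05 (3 higher, 12 lower), and limma-trend also called 0. The 15 stand beside the number of all marrow genes at that level, given above, and nothing is read from them. The treatment-by-tissue term over all 16 libraries called 257 of 11261 genes (2.28%) and 0 of 116 pathway genes in limma-voom, with 18 at an unadjusted p under 0.05. Among these 116, limma-trend called 1, voom with quality weights 2 and library totals alone 1, so calls here depend on the setting. With limma-voom alone, a pathway gene called in liver and not in marrow is thus not shown to respond differently in the 2 tissues. In untreated tissue 95 of 112 pathway genes were called, 64 higher in liver and 31 higher in marrow, beside 66.1% of all genes, and both counts include genes that passed the filter only through the tissue where they are high. Gluconeogenesis had 12 genes higher in liver and 2 lower among 15 tested, and the pentose phosphate list 1 higher and 6 lower among 8.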

How the data were processed

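RNA of 16 libraries was counted per gene by the authors and deposited as 1 table. STAR and DESeq2 are named in the submitters' processing notes, with the build and counting tool not given in the sources used here. The deposited values are whole counts, but the table is damaged (12 of 32635 lines continue the line before), so a plain reading does not hold counts alone and its unit was recorded as other. After rejoining, 32623 records were read, and in 16313 records that also hold group totals 0 totals differed from the sums. For that reason limma-voom (R 4.3.3, limma 3.58.1) was the test, with libraries scaled by trimmed means of M values, each tissue fitted alone, and voom's prior of 0.5 counts. A gene was kept at the CPM of 10 counts in the median library in 4 libraries and 15 counts in all. P-values compare libraries (n = 4 per group), whose spread may be in part technical. Replicate numbers were not used as pairs in the main fits (correlations of same-numbered deviations -0.008 to 0.062 within tissues). A batch shared by number was not tested, and a replicate block changed the counts of called genes, as given below. Shares carry 95% Clopper-Pearson intervals (SciPy 1.17.1). The fit was tested on simulated counts.

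The members, the gene lists and the tests were chosen with earlier results of these data known. Named genes are the 8 members, up to 3 called genes per direction of each list whose average log2 CPM reached 2, a fixed set of 20 pathway genes where measured (some are not reported here), and the 5 nearest to Sds. Pdk4 did not pass the filter in liver, and 5 list genes without a matching record were not analysed here. Alternatives were another test, quality weights, other scalings and filters, a replicate block and leaving out each library.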

Additional observations from a re-analysis of the deposited data

Results flagged for a closer look

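Sds in control liver had 1 library far from the other 3: control 2 stood at 22.1 CPM, and its gap to the next control was 0.962 of the group's range, above Dixon's critical value at the 95% level for 4 samples. Hk2 in NDEA liver had 1 such library as well: NDEA 4 stood at 12.6 CPM, with a gap of 0.883 of the range. Chance alone flags about 1 in 20 groups.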

How the results depend on the processing

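Across 272 alternatives of the members' log2 differences in liver, marrow and untreated tissue, 260 were classed as unchanged and 0 called differences reversed. These include untreated-tissue fits of Sds, Fbp1, Hk2 and Slc2a2, whose calls were set in part by the filter. They also include liver fits of the contrast that chose the members, so the 260 is a description and no support. The call was lost in 9 (all Pklr in liver) and gained in 2 (Pck1 in liver and in marrow, both with the replicate block). Uncalled values near 0 could change sign and still be classed as unchanged. Hk2 in marrow ran from -0.17 to 0.33 and Slc2a2 in liver from -0.21 to 0.05. The Fbp1 difference in liver became 0.06 with library totals alone. The count of genes called in marrow was 0, but 2 with no low-count filter, 289 with the replicate block and, over fits without 1 library, 0 to 318, the highest without control 3. Leaving out marrow NDEA 3 and 4 together, an alternative chosen after seeing the data, called 0. With the replicate block, Pck1 in marrow had an adjusted p of 0.0421 (0.0421 to 0.821 over its 16 alternatives). The Sds difference in liver was 3.93 with the replicate block, its lowest value, and 5.46 without control 2, its highest. In liver the replicate block called 732 genes against 639, and 439 to 600 were called without 1 library, the fewest without control 3. For the difference between tissues, 257 genes were called, 102 to 509 without 1 library: 163 without liver control 3, 102 without liver control 4 and 509 without marrow control 3. The cause of these changes was not tested. The pathway genes called in liver numbered 9 to 16 over the alternatives (16 with the replicate block). Low counts limit Hk2 in liver (3 to 84 counts), Sds in 3 control livers (12 to 19) and Pkm (7 in all).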
